A study of Bos taurus with 12 samples.

Results

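The 8 imprinted genes described here are CDKN1C, IGF2R, IGF2, SNURF, PEG3, MEST, NNAT and GNAS. They were chosen by symbol, as genes known to be imprinted in cattle or other mammals, with earlier results of these data known. Every probe set annotated to exactly 1 of these symbols was taken. The array carried 27 such probe sets among 24016, and 8 such genes among the 9155 that its annotation names.

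The genes were measured in bovine conceptuses, the embryo together with its elongated trophoblast, recovered on day 16 of gestation from cows that had received blastocysts on day 7. AI conceptuses came from blastocysts produced in vivo by artificial insemination. For the IVP group both fertilization and culture had taken place in vitro. SCNT stands for cloning by somatic cell nuclear transfer, where an oocyte receives a body cell's nucleus in place of its own. FB samples were cultured fibroblasts that served as nuclear donors for SCNT, although their sample label gives the same tissue as for the conceptuses. Each of the 4 groups had 3 arrays. The labels give no breed, sex or fibroblast line, and they do not say whether an array holds 1 conceptus or a pool, so the p-values rest on array-to-array spread that may be technical. Conceptuses of comparable length were selected.

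Imprinted genes are expressed mainly from the maternal or the paternal copy, depending on methylation marks laid down in the egg or the sperm. Many of them control growth of the fetus and the placenta. In mouse, genes expressed from the maternal copy such as Cdkn1c and Igf2r restrain growth, while genes expressed from the paternal copy such as Igf2 and Peg3 promote it. In sheep, fetal overgrowth after embryo culture has been linked to loss of methylation and lower expression at IGF2R. The arrays measured the summed transcript level and did not separate the 2 parental copies, so none of the values below says which copy was expressed.

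Probe sets of a gene are numbered by brightness, from 1 for the highest mean over the 12 arrays. Values are deposited log2 signals, on which a difference of 1 is a 2-fold change. They ran from 2.42 to 13.66, and a signal above log2 4 was counted as measured. On each array 26.5% to 27.7% of probe sets lay above that level. Probe sets above it on at least 3 arrays were compared with limma, and an adjusted p under 0.05 (Benjamini-Hochberg over all probe sets tested) was called a change. Errors are SD of 3 arrays and intervals are 95%. The tissue labels were checked against marker genes. Of 9 fibroblast markers, 8 were above log2 4 on every FB array. The summed linear signal of the 9 was 19369 to 20452 in FB and 60.5 to 84.9 in conceptuses. THY1 was the only marker of this list measured in conceptuses, and it read 2.78 to 3.28 in FB. Of 8 trophoblast markers on the array, ELF5 and KRT8 stayed below log2 4 in every conceptus, and the summed signal of the list was 18562 to 22255 in AI, 25931 to 27635 in IVP, 26842 to 29129 in SCNT and 51.5 to 53.5 in FB. Summed signals of 7 leukocyte markers were 298 to 672 in AI, 41.7 to 85.2 in IVP and 44.3 to 67.8 in SCNT, with PTPRC below log2 4 throughout. Summed signals of 4 erythroid markers were 84.7 to 248 in AI and 21.5 to 22.8 in the other conceptuses, with globin genes below log2 4. Summed signals of 9 hypoblast markers were 3709 to 5260 in AI, 4192 to 4992 in IVP, 3071 to 3960 in SCNT and 153 to 178 in FB. Among the 9, 5 stayed below log2 4 in every conceptus, AFP and TTR included, and TTR read 6.57 to 6.89 in FB. Epiblast genes POU5F1 and SOX2 were below log2 4 in every conceptus, while CRIPTO read 3.01 to 3.20 in AI, 5.40 to 6.14 in IVP and 5.31 to 5.54 in SCNT. Within the trophoblast list, TKDP2 read 11.16, 10.08 and 10.28 in AI against 2.56 to 3.33 in IVP and SCNT, and HAND1 read 8.0 to 8.33 in AI, 5.45 to 7.03 in IVP and 5.90 to 6.93 in SCNT. The difference between 3′ and 5′ GAPDH control probes, a sign of RNA quality, was 0.21 to 0.38 log2 units in AI, 0.35 to 0.89 in IVP with the highest value on IVP replicate 3, 0.28 to 0.45 in SCNT and 0.01 to 0.06 in FB. XIST, the RNA of the inactive X chromosome, was at 4.79, 4.88 and 2.57 in AI, at 4.0, 2.42 and 6.55 in IVP, and at 2.42 on all SCNT and FB arrays. These values moved with the conceptus groups. XIST level entered some fits below as a covariate, but it did not vary among the SCNT arrays. The parts of cell makeup and of conceptus sex in the differences below were not tested. In whole conceptuses, fewer cells of a type and less RNA per cell cannot be told apart.

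Of the 27 probe sets, 11 from 5 genes (CDKN1C, IGF2R, SNURF, PEG3 and GNAS) passed the filter among the conceptus arrays. Another 15 never rose above log2 4 on any conceptus array, among them all 4 for IGF2 and both for NNAT. The remaining one, a MEST probe set, rose above it on 1 array. Between SCNT and AI, 6 of the 11 tested probe sets were higher and 3 lower, against 27.6% of all 6892 probe sets tested that changed (16.2% higher, 11.4% lower). The 6 include IGF2R probe set 2 and the 3 include PEG3 probe set 3, which were above log2 4 on no array of AI and SCNT respectively, so the filter fixed their direction. The groups' arrays did not overlap for 10 of the 11, against 44.3% of all tested. Between IVP and AI, 4 were higher and 0 lower, IGF2R probe set 2 again with its direction fixed, against 17.9% of all tested that changed (8.42% higher, 9.49% lower), and 8 had an unadjusted p under 0.05, as did 33.1% of all tested; 7 did not overlap, against 37.4%. Between SCNT and IVP none of the 11 passed limma's adjusted threshold, where 0.580% of all tested did (0.232% higher, 0.348% lower) and 3 members had an unadjusted p under 0.05, as did 12.7% of all tested. The arrays of those groups did not overlap for 3 of the 11, against 19.7%. The median log2 difference of the 11 was 0.57 for SCNT against AI, 0.48 for IVP against AI and 0.09 for SCNT against IVP, beside medians over all tested of 0.08, 0.02 and 0.06. With no filter on low values, where all 24016 probe sets share the adjustment, 3 of the 9 changes in SCNT against AI kept the call (CDKN1C, IGF2R probe set 1 and GNAS probe set 3) and 0 of the 4 in IVP against AI did. Members passed the filter through signals in the compared groups, so these counts describe the 11 and not all 27. The members were chosen with earlier results of these data known, and probe sets of a gene are not independent. Setting their counts beside the shares over all tested is therefore a description and not a test. Of 9 other imprinted genes tested in SCNT against AI, 2 were higher and 1 lower. Both comparisons with AI share the AI arrays.

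**Figure D1:**
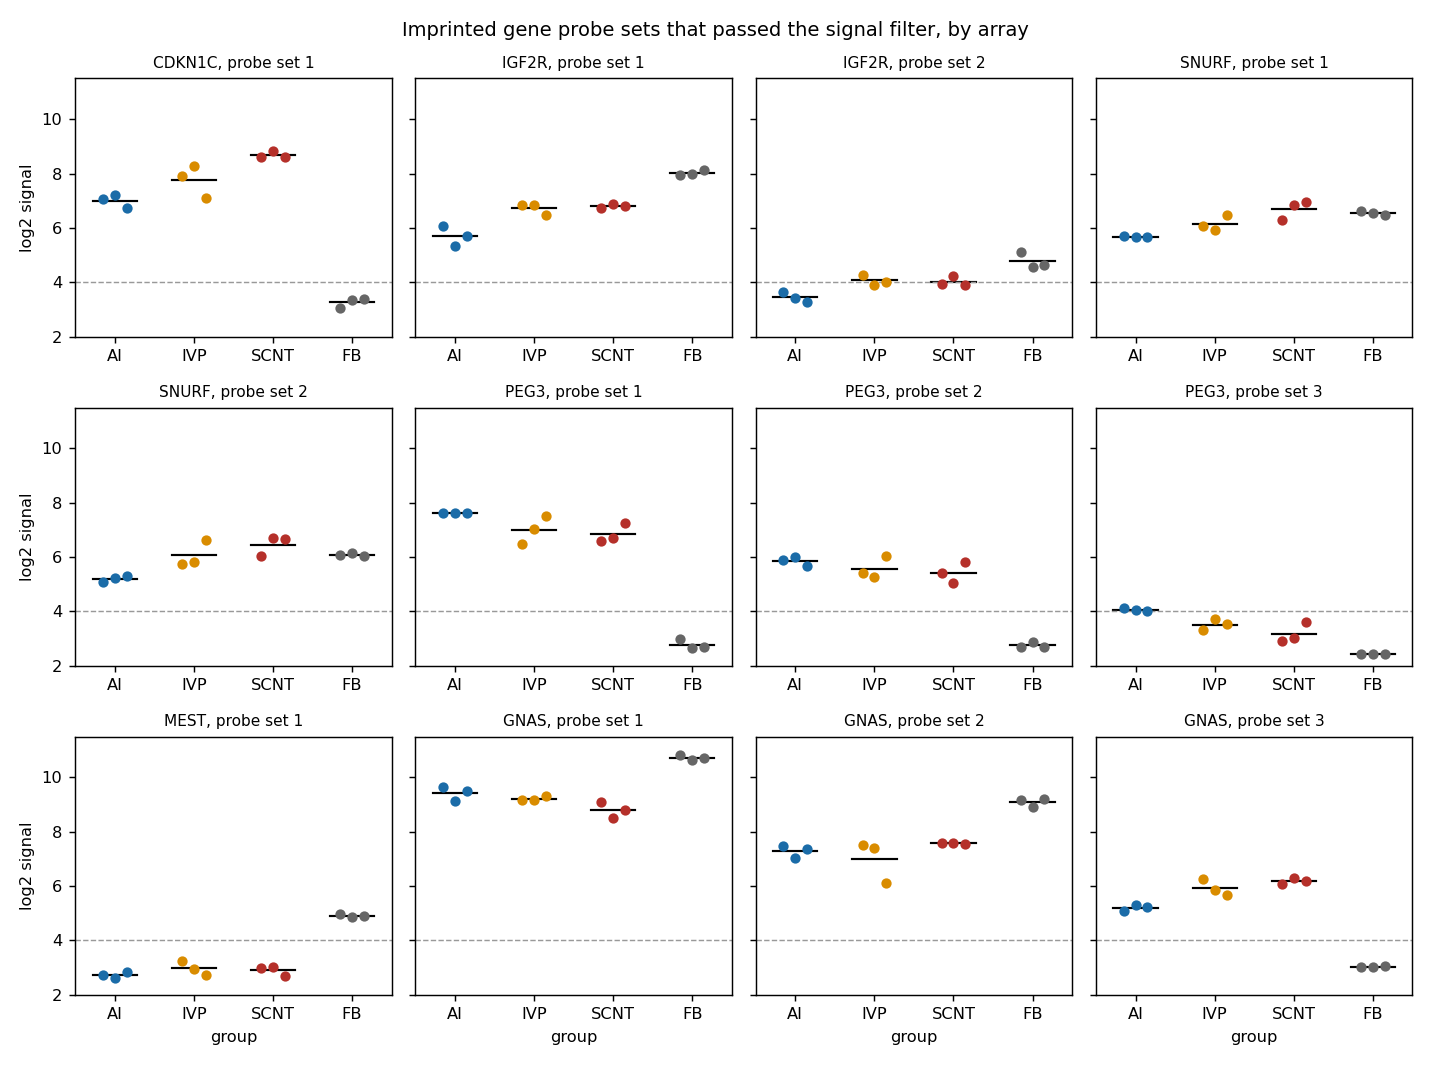
Log2 signal (y axis) of the 12 probe sets that passed the filter in any fit, by group (x axis). Points are arrays, black lines are means of 3 arrays, and the dashed line is log2 4. CDKN1C is highest in SCNT and below 4 in FB, IGF2R is lowest in AI, and the GNAS panels show 1 probe set lower and another higher in SCNT than in AI.

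CDKN1C, whose product p57 inhibits cyclin-dependent kinases and is expressed from the maternal copy, was lowest in AI among conceptuses and highest in SCNT. Its brightest probe set read 7.06, 7.20 and 6.72 in AI, 7.91, 8.26 and 7.11 in IVP, and 8.60, 8.83 and 8.59 in SCNT. The SCNT arrays lay above every array of both other groups, whereas 1 IVP array fell within the AI range. CDKN1C was 3.20-fold higher in SCNT than in AI (8.67 ± 0.13 against 6.99 ± 0.25, interval 2.16 to 4.74-fold, adjusted p = 0.00128). The call held in all 23 settings and omissions of an array, the main fit included, with differences of 1.43 to 1.84 log2 units. IVP, at 7.76 ± 0.59, stood between them. Its difference from AI of 0.77 (0.20 to 1.33) did not pass (adjusted p = 0.0621), and without IVP replicate 3, the array with the largest GAPDH gap, it was 1.09 with adjusted p = 0.00523. SCNT exceeded IVP by 0.91 (0.35 to 1.48) with adjusted p = 0.176, so the order of these neighbours was not separated by the test over all probe sets. The other 2 CDKN1C probe sets read between 2.42 and 2.67 on all arrays.

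IGF2R, the receptor that takes up IGF2 for degradation and carries mannose 6-phosphate tagged enzymes to lysosomes, was about equally higher in both in vitro groups than in AI. Its probe set 1 read 6.05, 5.34 and 5.71 in AI, 6.86, 6.83 and 6.46 in IVP, and 6.73, 6.88 and 6.82 in SCNT. Every IVP and SCNT array lay above every AI array, and the ranges of IVP and SCNT overlapped. IGF2R was 2.16-fold higher in SCNT than in AI (6.81 ± 0.08 against 5.70 ± 0.36, interval 1.63 to 2.87-fold, adjusted p = 0.00205) and 2.02-fold higher in IVP (6.72 ± 0.22, interval 1.52 to 2.69-fold, adjusted p = 0.00468). SCNT and IVP differed by 0.09 (−0.32 to 0.50, adjusted p = 0.893), an interval that leaves room for a difference of up to 0.50 above or 0.32 below.

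IGF2R probe set 2 ran near the measurable limit. It read 3.65, 3.40 and 3.27 in AI, 4.28, 3.91 and 4.01 in IVP, and 3.94, 4.21 and 3.88 in SCNT. It passed the filter through IVP replicates 1 and 3 and SCNT replicate 2, so AI had to be the low group, and with any of these 3 arrays left out it was not tested. The log2 differences were 0.57 for SCNT (adjusted p = 0.0212) and 0.62 for IVP (adjusted p = 0.0208). Because the AI mean lay below log2 4, the folds are at least 1.01 and at least 1.05. The SCNT call was lost without AI replicate 2 (adjusted p = 0.0511) or 3 (0.0738), and the IVP call without AI replicate 3 (0.0785). Across the 9 conceptus arrays the 2 IGF2R probe sets had a correlation of r = 0.89.

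**Figure D2:**
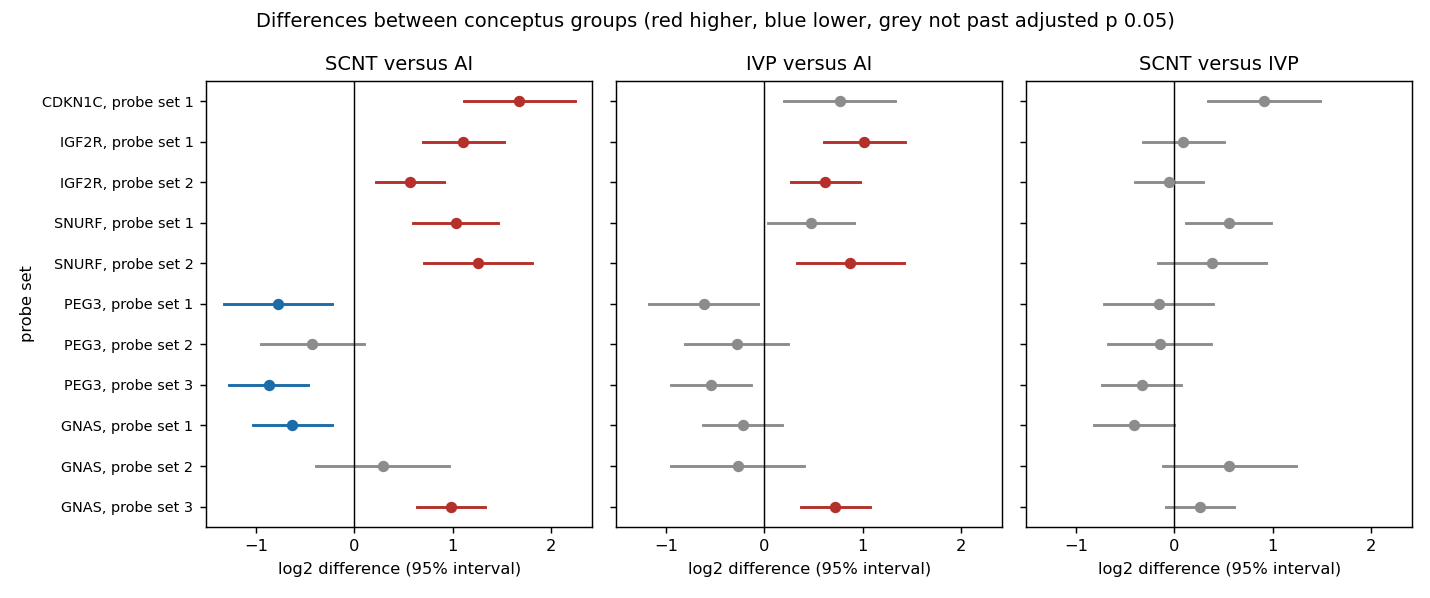
Log2 differences (x axis) with 95% intervals of the 11 probe sets tested among conceptuses (y axis), in 1 panel per comparison. Red and blue mark adjusted p under 0.05, higher and lower. SCNT against AI has 6 red and 3 blue points, IVP against AI has 4 red, and SCNT against IVP has none.

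SNURF, a gene expressed from the paternal copy whose transcript in human and mouse also encodes the splicing protein SNRPN, was higher in SCNT than in AI on both of its probe sets. Probe set 1 read 5.71, 5.65 and 5.66 in AI, 6.07, 5.92 and 6.48 in IVP, and 6.29, 6.86 and 6.97 in SCNT. The AI arrays were tightly grouped and below all others, while IVP and SCNT overlapped. The gene was 2.04-fold higher in SCNT than in AI on this probe set (6.71 ± 0.36 against 5.68 ± 0.03, interval 1.51 to 2.76-fold, adjusted p = 0.00404). IVP, at 6.15 ± 0.29, differed from AI by 0.48 (0.04 to 0.91, adjusted p = 0.118) and from SCNT by 0.55 in the other direction (0.12 to 0.99, adjusted p = 0.281).

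SNURF probe set 2 read 5.07, 5.23 and 5.30 in AI, 5.76, 5.82 and 6.64 in IVP, and 6.03, 6.69 and 6.65 in SCNT. It followed the first with r = 0.95 over the 9 arrays. SCNT was 2.39-fold above AI (interval 1.64 to 3.49-fold, adjusted p = 0.00461). IVP was 1.83-fold above AI (interval 1.26 to 2.67-fold, adjusted p = 0.0331), and this call was lost without any 1 of the AI arrays (adjusted p = 0.0680 to 0.102) and without IVP replicate 3 (0.59 log2 units, adjusted p = 0.0898). With the GAPDH gap as a covariate the IVP difference was 0.31 (adjusted p = 0.448), and without the 3 arrays of high spike-in signal (AI replicate 2, IVP replicates 2 and 3) it was 0.58 (adjusted p = 0.296).

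PEG3, a zinc finger gene expressed from the paternal copy, was lower in SCNT than in AI on probe set 1, and on probe set 3, whose direction the filter fixed. Probe set 1 read 7.60, 7.62 and 7.63 in AI, 6.47, 7.02 and 7.51 in IVP, and 6.58, 6.69 and 7.26 in SCNT. All in vitro arrays lay below the 3 nearly identical AI arrays, and they were far more spread. PEG3 was 1.71-fold lower in SCNT than in AI (6.84 ± 0.36 against 7.62 ± 0.01, interval 1.17 to 2.51-fold, adjusted p = 0.0410). This call was fragile: it was lost without any 1 of the AI arrays, SCNT replicate 1 or 2, or IVP replicate 2 (adjusted p = 0.0546 to 0.130), and with XIST as a covariate (−0.60, adjusted p = 0.151). The IVP difference of −0.62 did not pass (7.00 ± 0.52, adjusted p = 0.114), and was −0.87 with adjusted p = 0.0337 without IVP replicate 3. SCNT and IVP differed by −0.16 (adjusted p = 0.849).

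PEG3 probe set 2 read 5.90, 6.01 and 5.65 in AI, 5.41, 5.26 and 6.05 in IVP, and 5.42, 5.05 and 5.81 in SCNT. Its groups overlapped, and neither SCNT (−0.43, −0.95 to 0.10, adjusted p = 0.203) nor IVP (−0.28, adjusted p = 0.445) passed against AI. Probe set 3 passed the filter through its 3 AI arrays, at 4.11, 4.04 and 4.0, and every other array was below log2 4. Its SCNT difference of −0.87 (adjusted p = 0.00630) therefore had to be a fall and stands for at least 1.04-fold, and with any AI array left out it was not tested. The other 2 PEG3 probe sets stayed between 2.42 and 2.48.

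GNAS, which encodes the stimulatory G protein alpha subunit that couples hormone receptors to cyclic AMP, has in human and mouse several first exons, some used on the maternal and some on the paternal copy. Its 3 tested probe sets did not move together. Probe set 1 read 9.65, 9.13 and 9.52 in AI, 9.16, 9.18 and 9.31 in IVP, and 9.11, 8.49 and 8.82 in SCNT. The lowest AI array was above the highest SCNT array by 0.026, and IVP overlapped AI. SCNT was 1.55-fold lower than AI (8.80 ± 0.31 against 9.43 ± 0.27, adjusted p = 0.0271). The call was lost without AI replicate 1 or 3 or SCNT replicate 2 or 3 (adjusted p = 0.0636 to 0.110) and with XIST as a covariate (adjusted p = 0.0736). IVP differed from AI by −0.22 (9.21 ± 0.08, adjusted p = 0.435), and SCNT from IVP by −0.41 (−0.81 to −0.01, adjusted p = 0.381).

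GNAS probe set 3 went the other way. It read 5.08, 5.30 and 5.24 in AI, 6.25, 5.87 and 5.68 in IVP, and 6.09, 6.29 and 6.20 in SCNT. Both in vitro groups lay wholly above AI and overlapped each other. SCNT was 1.98-fold above AI (6.19 ± 0.10 against 5.21 ± 0.11, interval 1.56 to 2.52-fold, adjusted p = 0.00165), and IVP was 1.65-fold above it (5.93 ± 0.29, interval 1.30 to 2.10-fold, adjusted p = 0.0111). The SCNT call held in all 23 settings and omissions, the main fit included. SCNT and IVP differed by 0.26 (adjusted p = 0.521).

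GNAS probe set 2 read 7.46, 7.03 and 7.37 in AI, 7.51, 7.41 and 6.12 in IVP, and 7.59, 7.57 and 7.56 in SCNT. IVP replicate 3 stood below all other conceptus arrays. Neither SCNT (0.29, adjusted p = 0.513) nor IVP (−0.27, adjusted p = 0.575; 0.18 without IVP replicate 3) passed against AI. The remaining 2 GNAS probe sets stayed between 2.42 and 2.59.

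The unequal change of the GNAS probe sets was measured within arrays, on a pair chosen after its values were seen. Probe set 3 minus probe set 1 was −4.57, −3.83 and −4.28 log2 units in AI, −2.91, −3.31 and −3.63 in IVP, and −3.02, −2.20 and −2.62 in SCNT. No IVP or SCNT array overlapped AI. The difference shifted by 1.62 in SCNT and by 0.94 in IVP against AI, and an exact two-sided permutation test gave p = 0.1 for each, the smallest value that 20 splits of 3 against 3 allow. SCNT and IVP were 0.67 apart (exact p = 0.2). For probe set 3 minus probe set 2 the shifts against AI were 0.70 in SCNT and 0.99 in IVP. For probe set 2 minus probe set 1 they were 0.92 and −0.05. Which in vitro group shifted more therefore depended on the pair. The absolute size of such a difference is not a ratio of transcripts, because probe sets bind with unequal strength. Which GNAS transcripts each probe set detects is not given in the sources used here. Over the 9 conceptus arrays probe sets 3 and 1 had r = −0.80.

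**Figure D3:**
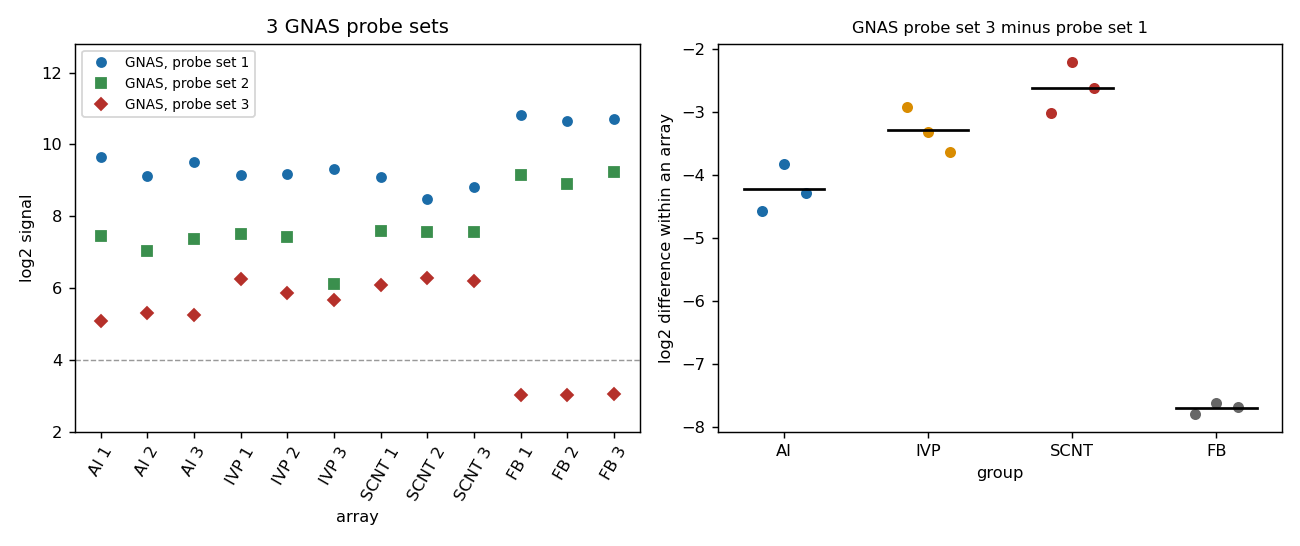
Left, log2 signal (y axis) of 3 GNAS probe sets on each array (x axis), with log2 4 dashed. Right, the log2 difference of probe set 3 minus probe set 1 within each array (y axis) by group (x axis). Lines are at the means of −4.23 in AI, −3.28 in IVP, −2.61 in SCNT and −7.69 in FB. Probe set 3 was below log2 4 on every FB array, so the FB value is not a measured difference.

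IGF2, the growth factor bound by IGF2R, was not measurable on any array: its 4 probe sets read at most 2.81. NNAT, a gene for a small membrane protein best known from brain, read at most 2.65 on its 2 probe sets. These readings show no level above the array's floor, and for a gene with a poorly matched probe set they say nothing about its RNA. Of the 4 probe sets for MEST, a gene of a hydrolase-fold protein expressed from the paternal copy, 2 stayed below 2.52. Probe set 2 was above log2 4 on AI replicate 3 alone, at 4.44, with 2.86 and 2.50 on the other AI arrays and 2.42 on all IVP, SCNT and FB arrays. Probe set 1 was measured in fibroblasts and is described with them.

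Against the donor fibroblasts, the 12 probe sets of 6 genes tested in the fit of all arrays did not all go one way, and the 3 of GNAS went both ways. In AI 5 were higher and 7 lower than in FB, in IVP 5 and 5, and in SCNT 5 and 5, beside 77.2%, 78.7% and 79.9% of all 8164 probe sets tested that changed. The shares of all tested that were higher were 41.6%, 43.0% and 45.0%, and those lower 35.6%, 35.7% and 34.8%. Arrays did not overlap for 12, 11 and 10 of the 12 members, against 81.3%, 83.4% and 84.7%. All 5 higher (CDKN1C, 3 of PEG3 and GNAS probe set 3) were below log2 4 on every FB array and passed the filter through conceptus arrays. MEST probe set 1 passed through FB arrays, and IGF2R probe set 2 was below log2 4 on every AI array, so the filter fixed these directions too. PEG3 probe set 3 is an exception in IVP and SCNT, because it passed through AI arrays alone. Its higher calls there compare groups that both lay below log2 4 on every array, so they are not measured differences. The counts therefore stand near the background of a comparison in which most of the array changed, and the 3 comparisons share the FB arrays.

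CDKN1C probe set 1 and PEG3 probe sets 1 and 2 were measured in conceptuses and below log2 4 in fibroblasts. The filter therefore fixed their direction, as it did for GNAS probe set 3. CDKN1C read 3.06, 3.36 and 3.40 in FB, and was at least 7.97-fold higher in AI, at least 13.6-fold in IVP and at least 25.5-fold in SCNT (adjusted p = 3.11e-08, 5.13e-09 and 8.62e-10). PEG3 probe set 1 read 2.99, 2.64 and 2.68 in FB, and was at least 12.3-fold higher in AI, 8.01-fold in IVP and 7.17-fold in SCNT (adjusted p = 2.01e-09, 7.38e-09 and 1.06e-08). No conceptus array came near the FB range on CDKN1C probe set 1 or PEG3 probe sets 1 and 2. PEG3 probe set 3 was below log2 4 on every IVP, SCNT and FB array. It read 2.93, 3.02 and 3.60 in SCNT and 2.42 on each FB array. GNAS probe set 3 was likewise low in FB, at 3.03, 3.03 and 3.04 in FB, and was at least 2.31-fold, 3.81-fold and 4.57-fold higher in AI, IVP and SCNT.

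IGF2R, the other GNAS probe sets and MEST were higher in fibroblasts. IGF2R probe set 1 read 7.95, 7.99 and 8.14 in FB, and was 5.01-fold lower in AI, 2.47-fold lower in IVP and 2.32-fold lower in SCNT (adjusted p = 7.51e-08, 1.51e-05 and 2.78e-05). All conceptus arrays were below all FB arrays, with AI farthest away. GNAS probe set 1 read 10.82, 10.65 and 10.71 in FB and was 2.45-fold, 2.85-fold and 3.79-fold lower in AI, IVP and SCNT. On probe set 2 it was 3.51-fold, 4.23-fold and 2.87-fold lower. MEST probe set 1 read 4.97, 4.87 and 4.90 in FB against 2.61 to 3.25 in conceptuses, which is at least 1.88-fold lower in each group (adjusted p = 2.14e-08, 6.61e-08 and 4.52e-08). It passed the filter through FB arrays alone, so it had to be lower in conceptuses.

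SNURF in fibroblasts lay within the range of the conceptuses. Probe set 1 read 6.62, 6.55 and 6.48 in FB, 1.83-fold above AI (adjusted p = 6.65e-04). IVP differed from FB by −0.40 (adjusted p = 0.0564) and SCNT by 0.16 (−0.23 to 0.54, adjusted p = 0.423). Without IVP replicate 3 the IVP difference was −0.56 (adjusted p = 0.0116). Probe set 2, at 6.07, 6.14 and 6.05 in FB, was likewise above AI (0.89 log2 units, adjusted p = 0.00344), with IVP −0.01 and SCNT 0.37 from FB (adjusted p = 0.961 and 0.150). Without IVP replicate 3 the SCNT difference of 0.37 passed (adjusted p = 0.0478). With the GAPDH gap as a covariate IVP lay below FB on both probe sets, by −0.93 and −0.99 (adjusted p = 0.0112 and 0.00366), and SCNT did not pass (−0.17 and −0.22). FB overlapped SCNT on both probe sets. Without SCNT replicate 1, SCNT passed above FB on both, by 0.36 and 0.58 (adjusted p = 0.0403 and 0.0308). From high to low, the group means of probe set 1 ran SCNT, IVP, AI, FB for CDKN1C, AI, IVP, SCNT, FB for PEG3, FB, SCNT, IVP, AI for IGF2R, and FB, AI, IVP, SCNT for GNAS. On probe set 2 of IGF2R the order was FB, IVP, SCNT, AI, and SCNT and IVP were not separated on either.

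The genes with the most similar pattern were looked up by Pearson correlation over the 9 conceptus arrays, as a description of arrays that share groups. CDKN1C was followed most closely by SLC10A1 (r = 0.960), ATAD1 (0.959) and ATIC (0.957). The nearest to IGF2R were HARS1 (0.990), GEMIN6 (0.979) and SEC11C (0.979). SNURF had TRMT6 (0.977), RBM23 (0.974) and SRSF6 (0.971), PEG3 had CYP51A1 (0.955), TMEM9B (0.944) and NDUFB2 (0.941), and GNAS on its brightest probe set had KRT19 (0.957), GPI (0.936) and SAP30L (0.929). Among the 8 genes themselves, CDKN1C ran with IGF2R (r = 0.80) and SNURF (0.71) and against PEG3 (−0.78) over the same arrays.

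Of 65 other genes reported as imprinted in cattle, mouse or human, 35 had a probe set, 12 were above log2 4 on some conceptus array, and 9 were tested among conceptuses. In SCNT against AI 2 were higher and 1 lower (median 0.16, beside 0.08 over all tested), and in IVP against AI 2 were higher and 0 lower (median 0.08, beside 0.02). Over all tested, 27.6% changed in the first comparison and 17.9% in the second, so these counts stand near the background. ASCL2, a transcription factor needed for trophoblast in mouse and expressed there from the maternal copy, read 6.17, 5.75 and 5.61 in AI, 7.68, 6.64 and 7.36 in IVP, and 7.80, 7.41 and 7.11 in SCNT. All in vitro arrays were above AI, by 3.03-fold in SCNT (adjusted p = 0.00218) and 2.61-fold in IVP (adjusted p = 0.00665). COMMD1, a gene of copper handling, read 4.98, 5.03 and 5.01 in AI, 6.20, 5.89 and 5.82 in IVP, and 5.73, 5.74 and 5.75 in SCNT, 1.67-fold (adjusted p = 0.00252) and 1.95-fold (adjusted p = 8.85e-04) higher in SCNT and IVP.

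GATM, the first enzyme of creatine synthesis, was the gene that fell. It read 5.84, 6.33 and 5.13 in AI, 4.65, 5.63 and 5.36 in IVP, and 3.90, 3.84 and 4.71 in SCNT. SCNT lay wholly below AI, by 3.07-fold (adjusted p = 0.00665), while IVP overlapped AI (−0.55, adjusted p = 0.290). PHLDA2, a restrainer of placental growth in mouse that lies near CDKN1C, averaged 4.67 in AI, 4.16 in IVP and 5.12 in SCNT and passed in neither comparison (adjusted p = 0.372 and 0.343). By mean over the 12 arrays UBE3A, CD81 and BLCAP were also among the 5 brightest, and they did not pass either. Between SCNT and IVP none of the 9 passed.

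**Figure D4:**
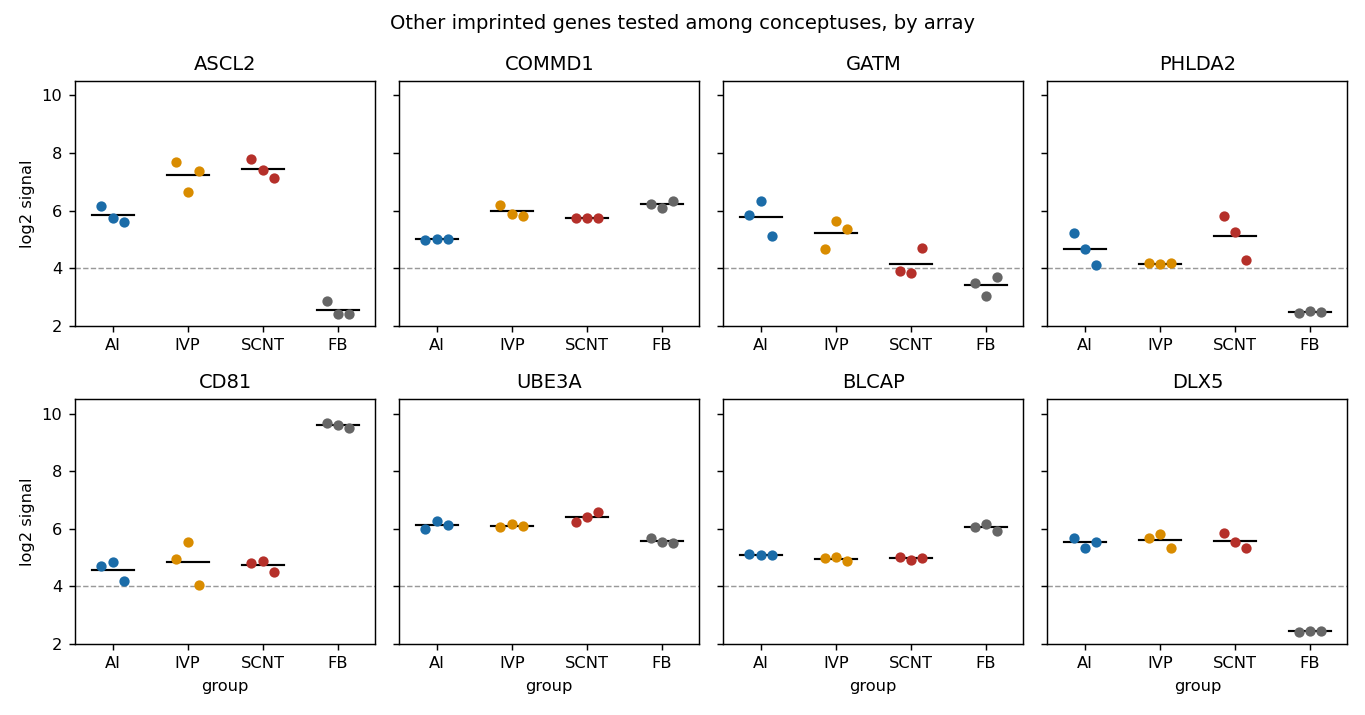
Log2 signal (y axis) of 8 other imprinted genes tested among conceptuses, by group (x axis), with points for arrays, lines for means of 3 arrays and log2 4 dashed. ASCL2 and COMMD1 are lowest among conceptuses in AI, GATM is lowest in SCNT, and CD81 stands at 9.59 in FB.

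Against FB, 17 of these other imprinted genes were tested. AI and IVP each had 5 higher and 11 lower, and SCNT had 4 higher and 11 lower, where 77.2% to 79.9% of all tested changed and 34.8% to 35.7% were lower. Among the 11 lower, 7 in AI and 8 in IVP and SCNT were above log2 4 on no array of that conceptus group, and 4, 4 and 3 of the higher were so in FB, so the filter fixed these directions. PLAGL1, SGCE, NDN and NAP1L5, picked after values were seen, averaged 5.76, 5.67, 5.40 and 5.34 in FB and between 2.42 and 2.62 in every conceptus group. They were at least 3.40-fold, 3.19-fold, 2.64-fold and 2.54-fold lower in AI, and these bounds were equal for SCNT. Other genes of the list fell further, and DCN was at least 75.0-fold lower in each conceptus group. TFPI2 was 52.0-fold lower in AI and at least 59.7-fold lower in IVP and SCNT. CD81 was 32.5-fold, 27.1-fold and 29.1-fold lower in AI, IVP and SCNT. Whether direction went with the parental copy was not tested. ASCL2 and PHLDA2 were below log2 4 in FB and at least 10.9-fold and 2.18-fold higher in SCNT.

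Genes next to the 8 on the chromosome were listed from the ARS-UCD2.0 gene table, 4 protein-coding genes on each side, a choice made after values were seen. Of 64 neighbours 13 were tested. In SCNT against AI 2 changed, ASCL2 near IGF2 and CTNNBL1 beside NNAT (0.45, adjusted p = 0.0474), and in IVP against AI 2 changed, ASCL2 and ATP5F1E near GNAS (0.50, adjusted p = 0.0313), beside 27.6% and 17.9% of all tested. PHLDA2 and CD81 near CDKN1C, MRPL18 near IGF2R and UBE3A beside SNURF did not pass in either comparison.

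Genes that act with IGF2 and IGF2R were mostly unmeasured. Of 26 names 4 were tested, with 1 higher and 1 lower in SCNT than in AI (median 0.24, beside 0.08 over all tested) and 1 higher in IVP, beside 27.6% and 17.9% of all tested that changed. IGF2BP1, which binds IGF2 mRNA, averaged 6.72 ± 0.33 in AI, 7.42 ± 0.05 in IVP and 7.55 ± 0.01 in SCNT, and was 1.78-fold (adjusted p = 0.00405) and 1.63-fold (adjusted p = 0.0133) higher. IGFBP7, a secreted IGF-binding protein, was 2.25-fold lower in SCNT than in AI (5.10 ± 0.96 against 6.27 ± 0.32, adjusted p = 0.0405). That call was lost in 11 of 23 settings, the main fit counted among the 23. Losses included the omission of AI replicate 1 or 2, SCNT replicate 1 or 2, or IVP replicate 1 or 2 (adjusted p = 0.0504 to 0.113). The difference was −0.63 without SCNT replicate 1.

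IGF2R also carries lysosomal enzymes, and of 20 tested genes of mannose 6-phosphate tagging and lysosomal hydrolases 2 were higher and 4 lower in SCNT than in AI, and 4 higher and 2 lower in IVP. That is 6 of 20 in each, beside 27.6% and 17.9% of all tested. The list's medians were 0.04 and 0.18, beside 0.08 and 0.02 over all tested. GNPTAB, the enzyme that starts the mannose 6-phosphate tag, averaged 6.31 ± 0.27 in AI, 7.49 ± 0.43 in IVP and 7.69 ± 0.02 in SCNT, 2.60-fold (adjusted p = 0.00125) and 2.27-fold (adjusted p = 0.00396) higher in SCNT and IVP. The proteases CTSB and CTSL were lower in both. CTSB fell from 10.07 ± 0.36 in AI to 8.16 ± 0.30 in SCNT, by 3.75-fold (adjusted p = 2.50e-04), and to 8.22 ± 0.26 in IVP, by 3.60-fold (adjusted p = 4.52e-04). CTSL was 2.76-fold (adjusted p = 0.00128) and 2.33-fold (adjusted p = 0.00468) lower. ASAH1, acid ceramidase, was 1.70-fold and 1.84-fold higher in SCNT and IVP (adjusted p = 0.00505 and 0.00362). CTSD was 1.84-fold lower in SCNT (adjusted p = 0.0134), a call lost without AI replicate 1 (0.0544) or SCNT replicate 3 (0.0522). CTSH was 1.82-fold higher in IVP (0.87 log2 units, adjusted p = 0.0495). The CTSH call was lost in 12 of 23 settings, the main fit counted among the 23. Losses included the omission of AI replicate 2 or 3, IVP replicate 2 or 3, or any SCNT array (adjusted p = 0.0631 to 0.147). The CTSH difference was 0.53 without AI replicate 3. M6PR, the other mannose 6-phosphate receptor, averaged 6.41 in AI, 6.13 in IVP and 6.35 in SCNT and did not pass (adjusted p = 0.763 for SCNT and 0.166 for IVP).

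CDKN1C acts on kinases of the cell cycle. Of 10 tested genes of cell cycle cyclins, kinases, their inhibitors and targets, 3 were higher and 1 lower in SCNT than in AI (median 0.30). In IVP 1 was higher and 1 lower (median 0.10). Of all tested, 27.6% and 17.9% changed, with medians of 0.08 and 0.02. CCND2 and CCND3 were below log2 4 on every AI array, and CDKN1A was above it on AI arrays alone, so the filter fixed the direction of their calls. CCND3 was not called in IVP against AI (0.21, adjusted p = 0.500), and its direction there was not fixed. CCND2, cyclin D2, averaged 2.55 ± 0.04 in AI, 5.62 ± 0.25 in IVP and 6.30 ± 0.22 in SCNT, at least 3.07-fold higher in IVP and at least 4.93-fold higher in SCNT (adjusted p = 2.30e-06 and 3.78e-07). CDKN1A, the p21 inhibitor of the same family, went against CDKN1C, from 4.78 ± 0.16 in AI to 3.37 ± 0.01 in IVP and 2.99 ± 0.37 in SCNT, at least 1.71-fold lower in each (adjusted p = 6.60e-04 and 1.02e-04). CCND3 and CCNB1 were called higher in SCNT (0.62 and 0.45 log2 units, adjusted p = 0.0406 and 0.0235). The CCND3 call was lost without AI replicate 1 or 2, SCNT replicate 2 or 3, or IVP replicate 1 or 2 (adjusted p = 0.0517 to 0.156), and the CCNB1 call without AI replicate 2 or 3 or SCNT replicate 1 or 3 (adjusted p = 0.0561 to 0.0699).

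Of 12 tested genes of G protein and cyclic AMP signalling, in which the GNAS product acts, 0 were higher and 4 lower in SCNT than in AI (median −0.21), and 0 higher and 3 lower in IVP (median −0.16). Of all tested, 11.4% and 9.49% were lower, with medians of 0.08 and 0.02. GNAI1, an inhibitory alpha subunit that opposes the GNAS product, averaged 9.25 ± 0.15 in AI, 7.47 ± 0.47 in IVP and 8.08 ± 0.07 in SCNT, 3.42-fold (adjusted p = 4.16e-04) and 2.24-fold (adjusted p = 0.00270) lower in IVP and SCNT. The gamma subunit gene GNG5 was 1.67-fold lower in SCNT (adjusted p = 0.00599) and 1.5-fold lower in IVP (adjusted p = 0.0253), where the call was lost without AI replicate 2 or 3 or IVP replicate 1 or 2 (adjusted p = 0.0615 to 0.0863). PRKAR2A, a regulatory subunit of protein kinase A, was 1.42-fold and 1.48-fold lower in SCNT and IVP (adjusted p = 0.0120 and 0.0111), with the SCNT call lost without SCNT replicate 2 (0.0534). GNB2, a beta subunit gene, was 1.58-fold lower in SCNT (adjusted p = 0.0264), a call lost without AI replicate 1 or 3 or SCNT replicate 2 or 3 (adjusted p = 0.0578 to 0.0944).

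SNURF shares its transcript with a spliceosome protein, and of 8 tested genes of the Sm and U1 or U2 particle proteins 3 were higher and 0 lower in SCNT than in AI (median 0.41), and 1 higher in IVP (median 0.32). Of all tested, 16.2% and 8.42% were higher, with medians of 0.08 and 0.02. SNRPD3 was 1.63-fold higher in SCNT (9.76 ± 0.22 against 9.05 ± 0.05, adjusted p = 0.00566) and 1.43-fold in IVP (9.56 ± 0.16, adjusted p = 0.0335). The IVP call was lost without any 1 of the AI arrays, IVP replicate 1 or 3, or SCNT replicate 2 (adjusted p = 0.0501 to 0.107). SNRPA1 and SNRPC were 1.56-fold and 1.40-fold higher in SCNT (adjusted p = 0.0125 and 0.0246), the SNRPC call being lost without AI replicate 1 or 2 or SCNT replicate 2 (adjusted p = 0.0625 to 0.106).

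Of 6 tested genes that set or keep imprints, 1 was higher in SCNT than in AI (median 0.27) and 0 changed in IVP by limma's adjusted threshold (median 0.27), beside 16.2% of all tested that were higher in SCNT and 17.9% that changed in IVP. UHRF1, which brings the maintenance methyltransferase to newly copied DNA, averaged 4.28 ± 0.12 in AI, 4.70 ± 0.17 in IVP and 5.03 ± 0.12 in SCNT, 1.68-fold higher in SCNT (adjusted p = 0.00322), while IVP did not pass (adjusted p = 0.0564). Between SCNT and IVP 0 genes of any of these lists passed limma's adjusted threshold. With no filter on low values, GATM, IGFBP7, CTSD, CCND3, GNB2, SNRPA1 and SNRPC lost their call in SCNT against AI, and ASCL2, IGF2BP1, CTSL, GNPTAB, CTSH, GNG5 and SNRPD3 lost theirs in IVP against AI. With the GAPDH gap as a covariate, IGF2BP1, GNPTAB and PRKAR2A lost their call in IVP against AI (adjusted p = 0.119, 0.0655 and 0.111), as did CTSH, GNG5 and SNRPD3 (0.254, 0.0896 and 0.198).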

How the data were processed

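Total RNA of 10 mg of conceptus tissue or of donor fibroblasts was amplified, biotin-labelled and hybridized to Affymetrix bovine arrays, per the labels' protocols. The authors deposited log2 signals. Per the submitters' processing notes, the tools were GCRMA and limma. Their versions and the set of arrays normalized jointly are not stated in what was available here. All 12 columns were used, and 112 control probe sets were left out.

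The array annotation gives 1 symbol to 13292 probe sets, several to 86 and none to 10638; 0 of the several-symbol sets held a member. Deposited values were tested without further normalization, with limma 3.58.1 in R 4.3.3, 1 coefficient per group, two-sided, with 6 residual degrees of freedom among 9 conceptus arrays and 8 among all 12. The median standard error was 0.16 and 0.14 log2 units. The filter, the threshold and the adjustment are given with the results. Where a group mean lay below log2 4, its arrays below 4 were set to 4 for the fold, which is then a lower bound. The procedure was tested on simulated data whose mean signals were set well above log2 4, so that test does not cover probe sets near the filter level.

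The members and gene lists were chosen with earlier results of these data known. All member probe sets are described. From each list, up to 4 genes changed in SCNT against AI, by size, and up to 2 more in IVP are named, and for other imprinted genes all that changed, the 5 brightest and a few more picked after their values were seen. A list gene is represented by its brightest tested probe set. Other settings were filters, thresholds, normalizations, variance models, arrays in the fit, GAPDH and XIST covariates, a replicate block and omission of arrays; for list genes they were added after seeing the data. Replicate numbers did not pair arrays: correlations of same-numbered deviations ran from −0.15 to 0.21.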

Additional observations from a re-analysis of the deposited data

How the results depend on the processing

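Of 1564 values of member probe sets under other settings, 1476 kept direction and side of the threshold, 41 lost the call, 20 gained one and 27 reversed, none of them a called difference. The 9 member probe sets changed in SCNT against AI became 3 with no filter on low values and 5 to 8 with 1 array left out. With brightest probe sets alone, all 5 tested changed. The 4 changed in IVP against AI became 0 with no filter and 2 to 5 with 1 array left out. They became 1 of 5 tested with brightest probe sets alone, and 1 at adjusted p under 0.01. SCNT against IVP gave 0 with any array left out. With brightest probe sets alone, 6, 5 and 5 of the 6 tested changed in AI, IVP and SCNT against FB. With 1 array left out 11 to 12, 9 to 11 and 9 to 12 changed in these comparisons. With the replicate block, numbers that do not pair arrays, 9, 5, 0, 12, 10 and 10 changed in SCNT against AI, IVP against AI, SCNT against IVP, and AI, IVP and SCNT against FB. Without a filter all 24016 probe sets are adjusted over instead of 6892; other causes were not tested. GNAS probe set 2 reversed to −0.14 in SCNT against AI with XIST as covariate, and in IVP against AI to 0.40 with the GAPDH covariate, 0.095 without the 3 arrays of high spike-in signal and 0.18 without IVP replicate 3 (−0.52 to 0.18 with 1 array left out). In SCNT against IVP, in the order GAPDH covariate, XIST covariate, those 3 arrays out and IVP replicate 3 out, reversed values were 0.014, 0.19, 0.015 and 0.090 for PEG3 probe set 2 (0.042 without SCNT replicate 2; lowest −0.34), −0.020, −0.046, −0.049 and −0.035 for IGF2R probe set 1 (highest 0.16), and 0.18, 0.037, 0.37 and 0.096 for PEG3 probe set 1 (lowest −0.43). IGF2R probe set 2 gave 0.022 with XIST and 0.013 without SCNT replicate 3 (lowest −0.13), and GNAS probe set 3 −0.052 without the 3 arrays. SNURF probe set 2 in IVP against FB gave 0.0093 after quantile normalization, 0.022 after median centring, and 0.14, 0.11 and 0.013 without IVP replicate 1, IVP replicate 2 or FB replicate 2 (down to −0.30 with another array left out, and −0.99 with the GAPDH covariate). SNURF in SCNT against FB gave −0.17 and −0.22 on its 2 probe sets with the GAPDH covariate. CCND3 in IVP against AI gave −0.070 with that covariate and −0.054 without the 3 arrays, and CCNB1 gave 0.011 without AI replicate 1 and 0.033 without IVP replicate 2 (lowest −0.091). With 3 arrays a group and a floor at 2.42, small differences and genes near log2 4 are beyond these data.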
